A study of Sus scrofa with 12 samples.

Results

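Glycolysis and hypoxia response genes were followed in whole ovaries of New French Yorkshire gilts that had come into estrus (ES) or had not (NES). A list of 38 genes was used, made up of 4 sugar and lactate transporters, 18 glycolytic enzymes, 3 regulators of glycolytic flux, 9 targets of the hypoxia-inducible factors (HIF) and 4 HIF subunits or partners. Members were found by their symbol in a table of 29150 loci, and the row with the highest mean count stood for a symbol on several rows. A row under its symbol was present for 28 of the 38 genes, and 25 of these had an annotated locus of their own. For GPI, P4HA1 and ARNT the row with the symbol was an unannotated stretch on the strand opposite to the gene, so it was not taken as the gene. LDHA, SLC2A3 and VHL were added by their identifier or position, which gave 28 measured genes. The other 10 genes lay in 9 loci that the authors' assembly had joined with neighbouring genes, and these are described apart.

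The ES group held 6 gilts with 2 consecutive recorded estrus cycles, slaughtered in the third estrus, and the NES group held 6 gilts with no recorded estrus. Estrus was checked from 165 days of age, and the labels give no age at slaughter. The gilts of both groups came from one farm population, and each ES gilt had a full sister among the NES gilts. The labels name no treatment of either group. The left ovary of each gilt gave 1 rRNA-depleted, strand-specific library with 58140547 to 68961955 counted reads. Levels below are FPKM, fragment counts scaled by the authors for locus length and sequencing depth. Counts and FPKM together imply lengths of 7604 to 8002 bases for GAPDH, 1942 to 2043 for LDHB and 20238 to 21305 for HK1. These ranges run over the libraries and take total counts as depth. Over loci with at least 100 counts in each library, the highest implied length was a median of 1.05 times the lowest. Whether the authors used these totals as depth was not tested. Whether such lengths match the mRNAs was not tested, so an order of genes by FPKM depends on them. The comparison of one gene between libraries does not.

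Glycolysis splits glucose into pyruvate through a chain of cytosolic enzymes and yields ATP without oxygen. HIF is a dimer of an alpha subunit (HIF1A or EPAS1) and ARNT. In oxygen, prolyl hydroxylases of the EGLN family mark the alpha subunits for removal by the VHL ubiquitin ligase, and at low oxygen the dimer switches on glycolytic enzymes, glucose transporters and other targets. In the ovary, granulosa cells lie inside the follicle without vessels of their own, and granulosa cells supply the oocyte with pyruvate and lactate.

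The measured genes did not separate ES from NES ovaries. Of the 28, 20 had a positive log2 difference (ES minus NES) and 8 a negative one, a share of 71.4% positive against 56.2% of all 20421 loci tested. None passed an adjusted p of 0.05 in edgeR's quasi-likelihood test, adjusted by the Benjamini-Hochberg method over all tested loci, where 193 loci (0.945%) were called, 31 of them (0.152%) higher and 162 (0.793%) lower in ES. At an unadjusted p under 0.05 there were 3 of the 28 genes, HKDC1, HK2 and EGLN1, against 16.3% of all loci. HKDC1 and HK2 were higher in ES, as were 9.5% of loci at this p, and EGLN1 was lower, as were 6.79%. DESeq2 called 1 of the genes, HK2, where it called 5.17% of loci, and limma on log2(FPKM + 0.5) called 0 where it called 1.62%. HKDC1 and SLC2A3 had no adjusted p in DESeq2. PFKL, GAPDH, PFKFB3 and PDK1, counted as positive in edgeR, were negative in that limma fit. No gene had all its ES values on one side of all its NES values, against 1.98% of loci. The median log2 difference of the 28 genes was 0.13 and that of all loci was 0.043, and without library ES3 the median of the 28 genes was -0.0062. All 28 genes passed the expression filter (mean FPKM of at least 0.5), HKDC1 and ANKRD37 only through the ES libraries, and HKDC1 only through library ES1. The p-values of HKDC1 are therefore no evidence of a group difference.

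**Figure D1:**
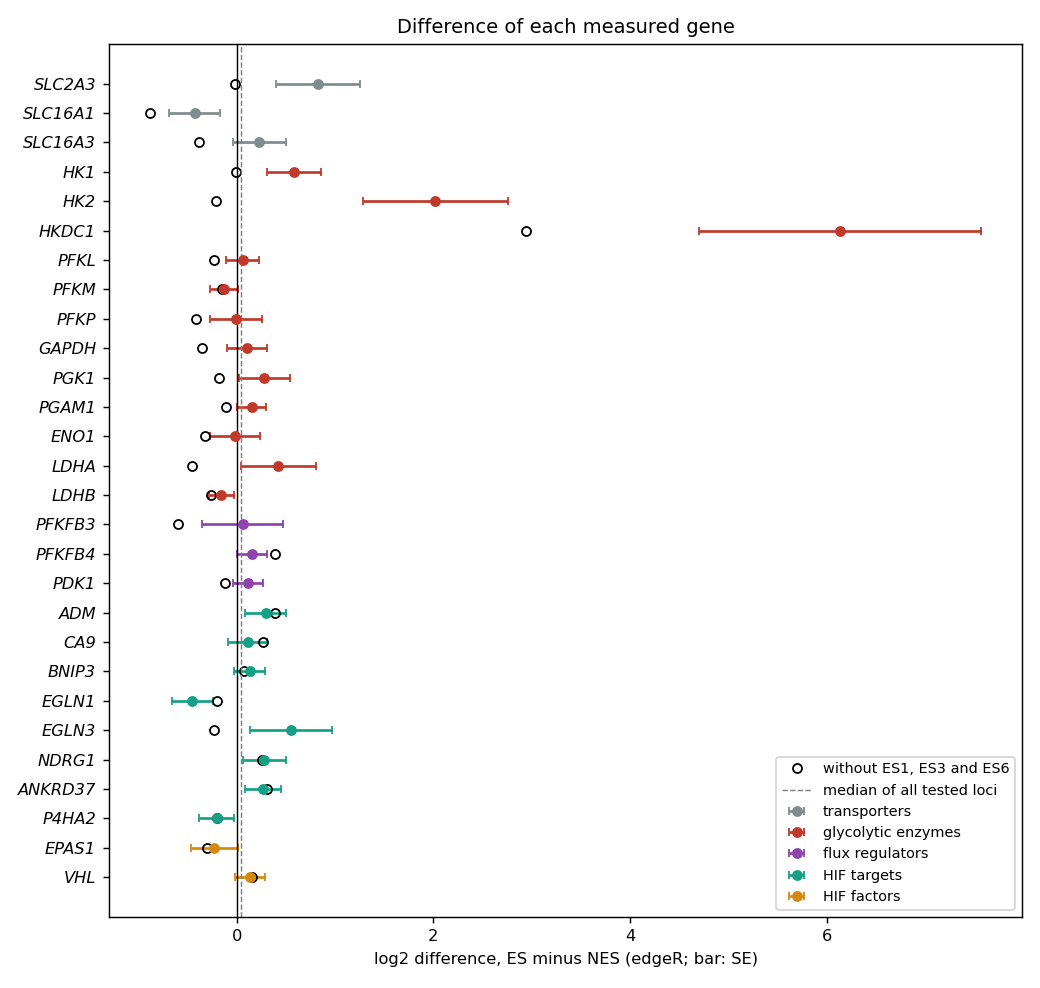
Log2 difference (ES minus NES) of each measured gene by role, with the SE from edgeR's quasi-likelihood test as bars, open circles for the difference without ES1, ES3 and ES6, and a dashed line at the median of all tested loci. HKDC1 at 6.13 and HK2 at 2.02 lie far to the right with wide bars, and most other genes lie near 0.

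By FPKM, and so given the locus lengths used, the order of the genes was nearly the same in both groups. ENO1, EPAS1, LDHB, GAPDH, PGK1 and PGAM1 held ranks 1 to 6 in both. Within that order GAPDH, with 27.9 ± 8.41 FPKM in ES against 27.8 ± 5.11 FPKM in NES (SD, n = 6 for both), and PGK1, with 27.4 ± 12.5 FPKM in ES against 24.2 ± 5.90 FPKM in NES (SD, n = 6 for both), differed by less than their spread. The ES mean put HKDC1 at rank 19 through library ES1, while its ES median of 0.438 FPKM was below the 0.586 FPKM of ANKRD37. In NES, HKDC1 was last and ANKRD37 next to last.

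Hexokinases phosphorylate glucose at the entry to glycolysis, and HKDC1 (chromosome 14, 72282016 to 72337037, plus strand, build Sscrofa11.1) is a more recently described member of that family. HKDC1 had 14.7, 0.126, 0.0575, 0.206, 0.671 and 0.770 FPKM in libraries ES1 to ES6, against 0.0778, 0.0326, 0.0312, 0.00997, 0.0754 and 0.0373 FPKM in NES1 to NES6. All ES libraries except ES3 were above every NES library, and ES1 stood far above the rest. Behind these levels were 10562, 85, 43, 138, 447 and 539 reads in ES1 to ES6, against 58, 23, 20, 7, 55 and 25 reads in NES1 to NES6. The log2 difference was 6.13 ± 1.43 (SE), with an adjusted p of 0.0632 in edgeR's test, the smallest among the 28 genes. HKDC1 passed the expression filter only through ES1, its highest library, so this p is no evidence of a group difference. DESeq2 gave HKDC1 no adjusted p. Without ES1 the log2 difference was 3.07, a value with no test here, since the mean of HKDC1 over the other 11 libraries was 0.190 FPKM, below the expression filter.

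HK2, the inducible hexokinase of muscle and many growing cells, is on chromosome 3 (68153824 to 68231619, minus strand). HK2 had 1.77, 0.628, 11.2, 0.412, 0.684 and 1.22 FPKM in ES1 to ES6, against 0.802, 1.00, 0.633, 0.677, 0.380 and 0.679 FPKM in NES1 to NES6. ES3, ES1 and ES6 were above every NES library, and the other ES libraries lay within the NES range. Its log2 difference was 2.02 ± 0.74 (SE), with an adjusted p of 0.208 in edgeR's test and of 0.0431 in DESeq2. Without ES3 the edgeR difference was 0.56, with an adjusted p of 0.528. A second row under the HK2 symbol, on the opposite strand, held 63.4% as many counts as the HK2 locus, and the strand setting of the counting is not given in the sources.

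HK1, the hexokinase found in most tissues, lies next to HKDC1 on the same strand (chromosome 14, 72365174 to 72461886). HK1 ranged over 2.86, 4.09 and 8.13 FPKM in ES (lowest, median and highest), against 3.11, 3.53 and 4.93 FPKM in NES. ES1 (8.01) and ES3 (8.13) were above all NES libraries, and the groups overlapped. The log2 difference was 0.59 ± 0.28 (SE), with an adjusted p of 0.313 in edgeR's test. By FPKM, HK2 exceeded HK1 in ES3 and HKDC1 exceeded it in ES1. HK1 had the highest FPKM of the 3 hexokinase genes in the other ES and all NES libraries. By reads, HK1 stayed ahead, with 11098 against 4893 for HK2 in ES3 and 11069 against 10562 for HKDC1 in ES1. The lengths implied by counts and FPKM were 20238 to 21305 bases for HK1, 6511 to 6848 for HK2 and 10804 to 11572 for HKDC1.

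**Figure D2:**
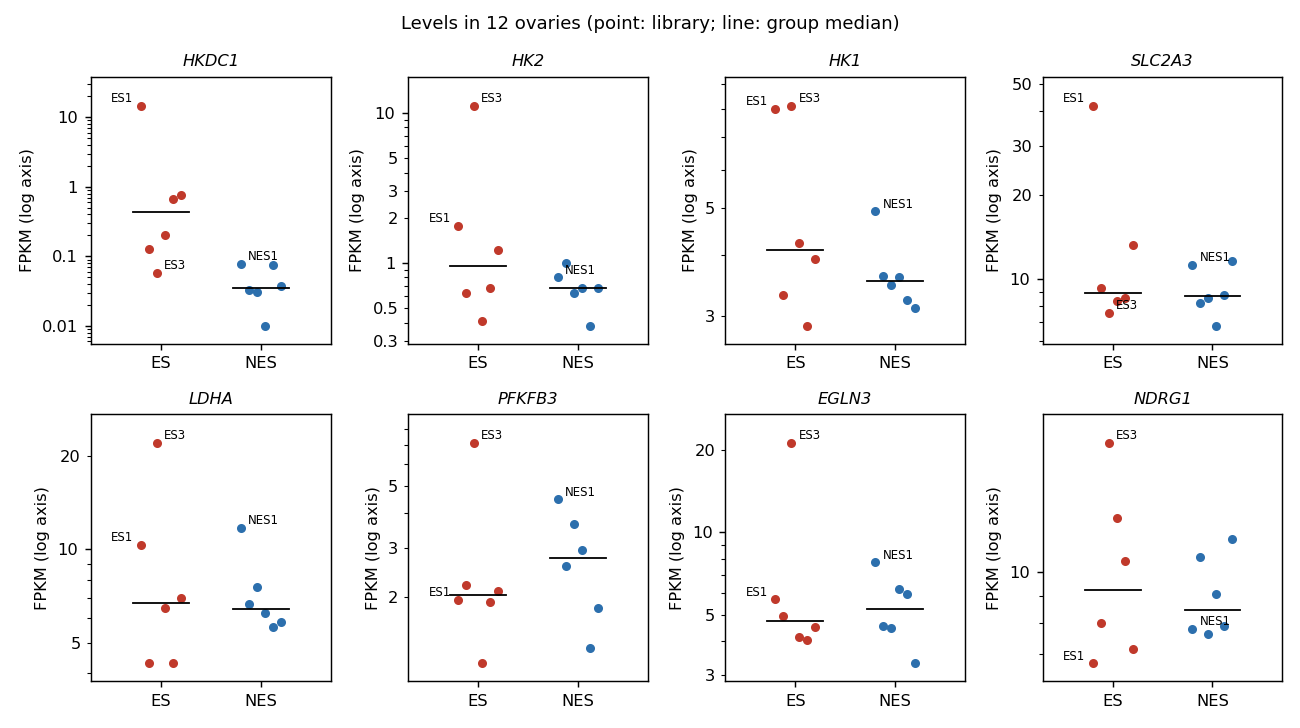
FPKM of 8 genes in each library on log axes, ES left of NES, with a line at each group's median and libraries ES1, ES3 and NES1 named. ES3 is the highest point for HK2 (11.2), LDHA (21.9), PFKFB3 (7.10), EGLN3 (21.2) and NDRG1 (17.6), and ES1 for HKDC1 (14.7) and SLC2A3 (41.9).

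Phosphofructokinase makes the committed step of glycolysis and has 3 subunit genes. PFKL, the liver form, ranged over 8.10, 9.60 and 16.1 FPKM in ES, against 8.41, 10.5 and 13.7 FPKM in NES. PFKM, the muscle form, ranged over 1.64, 2.11 and 2.99 FPKM in ES, against 2.31, 2.59 and 2.89 FPKM in NES. PFKP, the platelet form, ranged over 2.05, 3.13 and 5.83 FPKM in ES, against 2.79, 3.38 and 5.50 FPKM in NES. PFKL was the most abundant subunit gene in every library. The groups overlapped for all 3 genes, although 4 ES libraries had less PFKM than any NES library. The log2 differences were 0.061 for PFKL, -0.13 for PFKM and -0.0031 for PFKP, with adjusted p-values of 0.896, 0.688 and 0.997 in edgeR's test. Without ES3, whose PFKL was the highest and whose PFKM was the lowest of all libraries, the difference of PFKL was -0.097.

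The enzymes of the lower chain turn triose phosphates into pyruvate and make its ATP. GAPDH, which oxidises glyceraldehyde phosphate, ranged over 18.3, 27.0 and 40.0 FPKM in ES, against 23.1, 25.7 and 35.8 FPKM in NES. PGK1, the first ATP-forming enzyme of the chain and an X-linked gene, ranged over 16.2, 26.1 and 51.1 FPKM in ES, against 18.7, 22.4 and 35.7 FPKM in NES. ES3 was the highest library for both, and the ranges of the groups overlapped. The log2 difference of GAPDH was 0.10 ± 0.20 (SE), with an adjusted p of 0.846 in edgeR's test, and it was -0.025 without ES3. That of PGK1 was 0.28 ± 0.26 (SE), with an adjusted p of 0.627 in edgeR's test, and it was 0.013 without ES3. PGAM1, a phosphoglycerate mutase, ranged over 14.0, 16.2 and 22.8 FPKM in ES, against 13.9, 16.2 and 22.7 FPKM in NES, with a log2 difference of 0.16 and an adjusted p of 0.641 in edgeR's test. The medians of PGAM1 were almost equal, and ES6 and NES1 were the highest libraries.

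ENO1, the common enolase and the most abundant of the measured genes, ranged over 41.9, 78.1 and 88.8 FPKM in ES, against 47.9, 70.3 and 128.6 FPKM in NES. NES1 was above all the other libraries. ENO1 had a log2 difference of -0.013 ± 0.25 (SE), with an adjusted p of 0.988 in edgeR's test. It was 0.18 without NES1.

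Lactate dehydrogenase interconverts pyruvate and lactate and is built from LDHA and LDHB subunits. LDHA, whose enzyme favours lactate, ranged over 4.31, 6.73 and 21.9 FPKM in ES, against 5.63, 6.46 and 11.7 FPKM in NES. ES3 was the highest ES library and NES1 the highest NES library, and the medians were close. LDHA had a log2 difference of 0.42 ± 0.38 (SE), with an adjusted p of 0.619 in edgeR's test, and it was -0.044 without ES3. LDHB, the heart form, ranged over 34.0, 42.2 and 48.2 FPKM in ES, against 41.7, 46.8 and 63.8 FPKM in NES. ES2, ES3 and ES4 lay below every NES library for LDHB, and its log2 difference was -0.15 ± 0.13 (SE), with an adjusted p of 0.600 in edgeR's test. By FPKM, LDHB was above LDHA in all 12 libraries. By reads, ES3 went the other way, with 8913 for LDHA and 5076 for LDHB, while LDHB stayed ahead in the other libraries. The lengths implied by counts and FPKM were 6019 to 6336 bases for LDHA and 1942 to 2043 for LDHB.

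Transporters carry hexoses in and lactate across the membrane. SLC2A3, a high-affinity glucose transporter (chromosome 5, 62963640 to 63041997, minus strand), ranged over 7.58, 8.89 and 41.9 FPKM in ES, against 6.78, 8.68 and 11.6 FPKM in NES. ES1 and ES6 were above all NES libraries and the other ES libraries lay within the NES range. For SLC2A3 the log2 difference was 0.83 ± 0.43 (SE), with an adjusted p of 0.361 in edgeR's test, and it was 0.088 without ES1. SLC16A1, a monocarboxylate transporter that moves lactate in either direction, ranged over 1.60, 2.59 and 3.89 FPKM in ES, against 2.24, 3.62 and 6.07 FPKM in NES. ES2 and ES4 had less SLC16A1 than any NES library, and the log2 difference was -0.43 ± 0.26 (SE), with an adjusted p of 0.436 in edgeR's test. SLC16A3, which exports lactate from glycolytic cells, ranged over 1.01, 1.72 and 2.93 FPKM in ES, against 1.27, 1.66 and 2.30 FPKM in NES. ES3 and ES6 were above and ES2 and ES5 below every NES library, and its log2 difference was 0.23 ± 0.27 (SE), with an adjusted p of 0.720 in edgeR's test.

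Regulators of flux set how fast the chain runs and where pyruvate goes. PFKFB3, a bifunctional enzyme that makes the phosphofructokinase activator fructose 2,6-bisphosphate, ranged over 1.16, 2.03 and 7.10 FPKM in ES, against 1.32, 2.77 and 4.47 FPKM in NES. ES3 alone was above the NES range. The log2 difference of PFKFB3 was 0.062 ± 0.41 (SE), with an adjusted p of 0.961 in edgeR's test, and it was -0.48 without ES3. PFKFB4, a second gene of that family, ranged over 1.52, 2.27 and 3.46 FPKM in ES, against 1.86, 2.17 and 2.62 FPKM in NES. PDK1, the kinase that holds back pyruvate dehydrogenase, ranged over 2.13, 2.82 and 4.34 FPKM in ES, against 2.72, 2.87 and 3.22 FPKM in NES. The groups overlapped for both genes, and the wider range was in ES. The log2 differences were 0.16 for PFKFB4 and 0.12 for PDK1, with adjusted p-values of 0.657 and 0.759 in edgeR's test, and PFKFB4 was at 0.0069 without ES4 and PDK1 at -0.029 without ES3.

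By role, 8 of 12 measured glycolytic enzymes had a positive log2 difference, with a median of 0.13. Of the 8 measured HIF targets, 6 had a positive difference, with a median of 0.20. The 3 transporters had a median of 0.23, the 3 flux regulators of 0.12 and the 2 HIF factors of -0.045. None of these groups had a called gene. Without ES3 the median was -0.034 for the glycolytic enzymes, 0.087 for the HIF targets, 0.057 for the transporters, -0.029 for the flux regulators and 0.0079 for the HIF factors, and without ES1 it was 0.088 for the transporters and -0.22 for the HIF factors. PFKL, GAPDH, PFKFB3 and PDK1, positive here, were negative in the limma fits, which set the median of all loci at -0.051 instead of 0.043 with a pseudocount of 0.5.

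HIF targets outside glycolysis were examined next. EGLN1, the main oxygen-sensing prolyl hydroxylase and itself a HIF target (chromosome 14, 59066752 to 59171899, plus strand), had 2.19, 3.11, 2.28, 2.56, 4.84 and 2.36 FPKM in ES1 to ES6, against 3.09, 3.99, 4.98, 3.38, 5.56 and 4.02 FPKM in NES1 to NES6. ES1, ES3, ES4 and ES6 lay below every NES library, and ES5 lay among the high NES values. EGLN1 had a log2 difference of -0.45 ± 0.21 (SE), with an unadjusted p of 0.0477 and an adjusted p of 0.301 in edgeR's test. It was negative under each of its 23 alternatives, with adjusted p-values of 0.0883 to 0.779.

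EGLN3, a hydroxylase strongly induced by hypoxia in many cells (chromosome 7, 65805487 to 65833573, plus strand), had 5.69, 4.95, 21.2, 4.15, 4.05 and 4.52 FPKM in ES1 to ES6, against 7.76, 4.54, 4.47, 6.21, 5.96 and 3.32 FPKM in NES1 to NES6. ES3 stood alone above the rest, and the other ES libraries lay inside the NES range. The log2 difference was 0.55 ± 0.41 (SE), with an adjusted p of 0.540 in edgeR's test, and it was -0.10 without ES3.

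NDRG1, a stress-responsive gene induced by hypoxia, ranged over 6.73, 9.25 and 17.6 FPKM in ES, against 7.64, 8.49 and 11.6 FPKM in NES. ES3 and ES4 were above and ES1 and ES6 below all NES libraries. Its log2 difference was 0.28 ± 0.22 (SE), with an adjusted p of 0.559 in edgeR's test, and it was 0.066 without ES3. ADM, the vasodilator peptide adrenomedullin, ranged over 4.63, 6.24 and 8.53 FPKM in ES, against 3.79, 5.43 and 7.24 FPKM in NES. ES4 and ES1 were above all NES libraries for ADM, and its log2 difference was 0.30 ± 0.21 (SE), with an adjusted p of 0.510 in edgeR's test. ADM was among the genes in which ES3 was not high, with 4.63 FPKM, the lowest of the ES libraries.

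CA9, a cell-surface carbonic anhydrase often used as a marker of hypoxia, ranged over 1.17, 1.57 and 2.54 FPKM in ES, against 1.33, 1.51 and 2.24 FPKM in NES. BNIP3, a mitophagy receptor, ranged over 2.16, 3.71 and 4.17 FPKM in ES, against 2.78, 3.34 and 4.13 FPKM in NES. The medians of both genes were close and the groups overlapped almost fully. The log2 differences were 0.11 for CA9 and 0.13 for BNIP3, with adjusted p-values of 0.829 and 0.722 in edgeR's test, and CA9 was at -0.048 without ES4, its highest library.

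ANKRD37, a small ankyrin-repeat protein, ranged over 0.454, 0.586 and 0.671 FPKM in ES, against 0.370, 0.518 and 0.649 FPKM in NES. Its log2 difference was 0.27 ± 0.18 (SE), with an adjusted p of 0.50 in edgeR's test, and the other row under its symbol, with the higher FPKM, had -0.32. P4HA2, a collagen prolyl hydroxylase subunit, ranged over 2.06, 2.49 and 3.13 FPKM in ES, against 2.39, 2.68 and 4.69 FPKM in NES. ES3, ES4 and ES5 were below all NES libraries for P4HA2, and its log2 difference was -0.20 ± 0.18 (SE), with an adjusted p of 0.617 in edgeR's test, and it was -0.049 without NES6.

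Of the HIF subunits and partners, EPAS1 and VHL could be measured alone. EPAS1, the alpha subunit HIF-2 alpha, prominent in endothelium, ranged over 25.8, 39.5 and 73.5 FPKM in ES, against 40.2, 56.5 and 68.9 FPKM in NES. ES1 had the highest EPAS1 of all libraries and ES3 the lowest, and the ES range held that of NES within it. EPAS1 had a log2 difference of -0.23 ± 0.24 (SE), with an adjusted p of 0.683 in edgeR's test, and it was -0.49 without ES1 and -0.11 without ES3. VHL, the substrate receptor that marks alpha subunits for degradation, ranged over 3.41, 5.02 and 5.66 FPKM in ES, against 4.07, 4.30 and 5.85 FPKM in NES, with a log2 difference of 0.14 and an adjusted p of 0.707 in edgeR's test. The groups overlapped for VHL, with ES2 and ES6 below every NES library.

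The spread between ES libraries was wide for these genes. In 22 of 28 (78.6%) the SD of log2 FPKM was larger in ES than in NES, close to the 73.4% of all tested loci. The median SD on the log2 scale was 0.41 in ES and 0.25 in NES for the 28 genes, and 0.32 in ES and 0.22 in NES for all loci.

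Much of the spread lay in single libraries. ES3 was the highest of the 12 libraries for 12 of the 28 genes (42.9%), against 18.6% of all loci, and for 7 of the 12 glycolytic enzymes (58.3%) and 2 of the 8 HIF targets, EGLN3 and NDRG1. ES3 was at least 2-fold above the median of the other ES libraries for 8 of the 28 genes, against 9.44% of loci, and ES1 for 5 of them, against 6.27% of loci. The genes so raised in ES3 were HK1, HK2, PFKP, PGK1, LDHA, PFKFB3, EGLN3 and NDRG1. Those raised in ES1 were SLC2A3, HK1, HK2, HKDC1 and EPAS1. HK1 and HK2 stood in both lists, while HKDC1, with 0.0575 FPKM in ES3, was lower there than in any other ES library.

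The median level of the 12 glycolytic enzymes, as a log2 difference from the NES mean, was 0.23, -0.31, 0.55, -0.16, -0.19 and 0.11 in ES1 to ES6, against 0.39, 0.0066, -0.077, -0.069, -0.088 and -0.23 in NES1 to NES6. ES3 was the highest ES library and NES1 the highest NES library by this measure. For the 8 HIF targets the same measure was -0.12, -0.078, 0.032, 0.12, 0.19 and -0.046 in ES1 to ES6, against -0.18, -0.050, -0.21, 0.20, 0.0019 and 0.12 in NES1 to NES6. Neither ES3 nor NES1 was the highest library of its group for the HIF targets. Over all tested loci the measure was -0.19, -0.058, -0.073, -0.061, -0.019 and -0.041 in ES1 to ES6. In NES1 to NES6 it was 0.032, 0.038, -0.018, -0.037, -0.039 and 0.0068 over all tested loci.

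**Figure D3:**
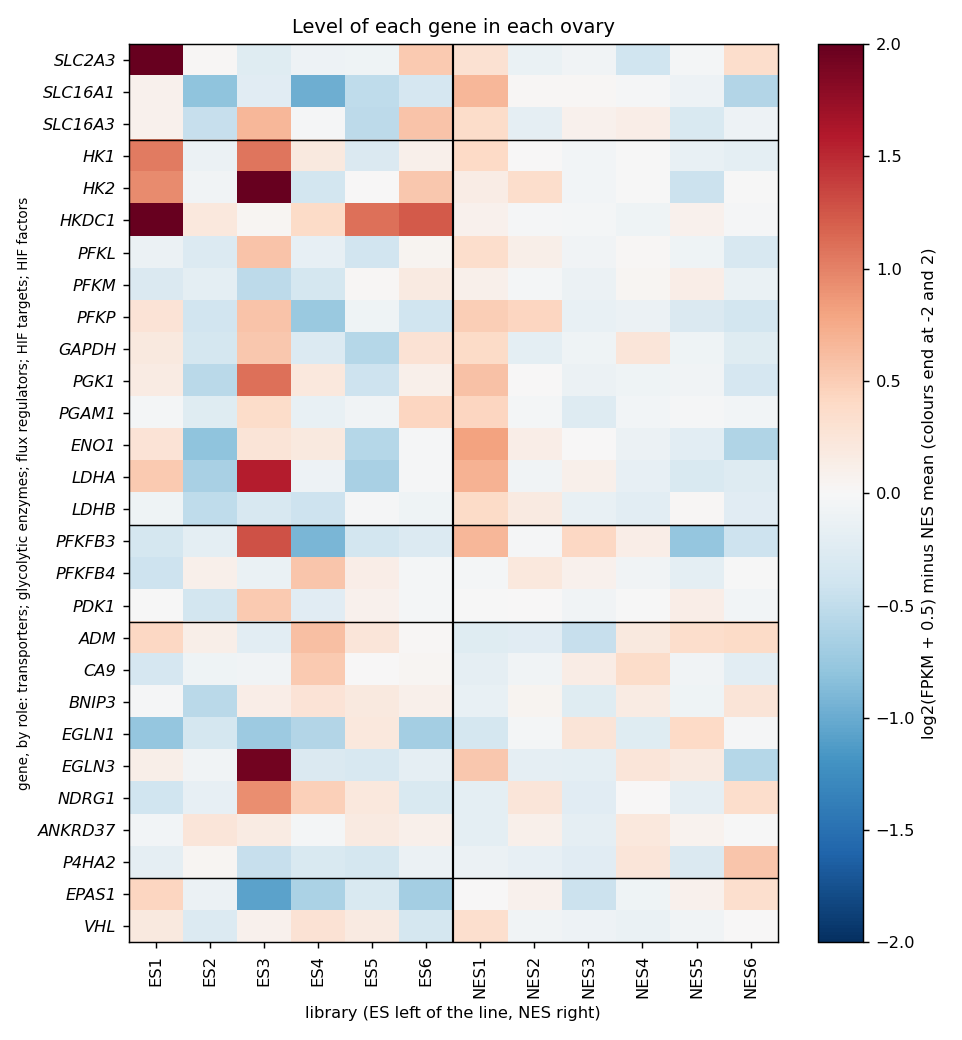
Log2 FPKM of each measured gene in each library minus the gene's NES mean, with genes in rows by role, ES libraries left of NES libraries and a colour scale in log2 units. The ES3 column is high for many glycolytic enzymes and for EGLN3 and NDRG1, and the ES1 column for HKDC1 and SLC2A3.

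The libraries that stood apart for these genes also differed in markers of ovarian cell types. The summed FPKM of 9 measured macrophage and monocyte markers (of 10 listed) was 429.8 in ES3, against 15.9 to 23.2 in the other ES libraries and 12.2 to 27.8 in NES. The summed FPKM of 5 measured theca markers (of 6) was 2.23 in ES3, with an ES range of 2.23 to 311.7, against 98.1 to 165.9 in NES. The summed FPKM of 8 measured granulosa markers (of 10) was 110.6 in ES3 and 1394 in ES1, the ends of the ES range, against 219.4 to 737.5 in NES. NES1 held the upper end of that NES range. These sums follow their most abundant genes, and INHA alone spanned 3.99 to 1193 FPKM in ES. Log2 differences were positive for 4 of the 8 granulosa and 2 of the 5 theca markers. The theca markers HHIP and GLI1 reached 1.40 and 0.777 FPKM in ES, with lowest NES values of 1.59 and 1.31. Of all tested loci, 1.72% had no overlap with ES lower. The theca markers CYP17A1, INSL3 and STAR overlapped between the groups. Their highest values were 208.1, 101.9 and 59.6 FPKM in ES, against 58.7, 121.3 and 5.41 FPKM in NES. The 3 measured luteal markers (of 6) summed to 31.8 to 360.7 FPKM in ES, with the highest value in ES1, against 16.2 to 33.2 FPKM in NES. The 7 epithelial markers summed to 2.08 to 63.3 FPKM in ES, with the highest value in ES6, against 0.770 to 3.73 FPKM in NES, and among them CLDN4, FOXJ1 and KRT18 were at 0 in some libraries. The 5 measured lymphocyte markers (of 7) summed to 1.68 to 4.54 FPKM in ES, with the highest value in ES3, against 1.45 to 2.59 FPKM in NES. The 6 measured oocyte markers (of 7) summed to 5.17 to 12.1 FPKM in ES, against 7.46 to 13.7 FPKM in NES, and the log2 differences of all 5 that were tested were negative. Endothelial, smooth muscle and stromal sums overlapped widely between the groups, and HBB, the beta globin of red blood cells, was at 0 in 3 ES and 5 NES libraries. The part of these cell types in the values of HK2, LDHA, EGLN3, HKDC1, SLC2A3 and the other genes was not tested, and in whole-ovary RNA fewer cells of a type and less RNA per cell cannot be told apart.

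**Figure D4:**
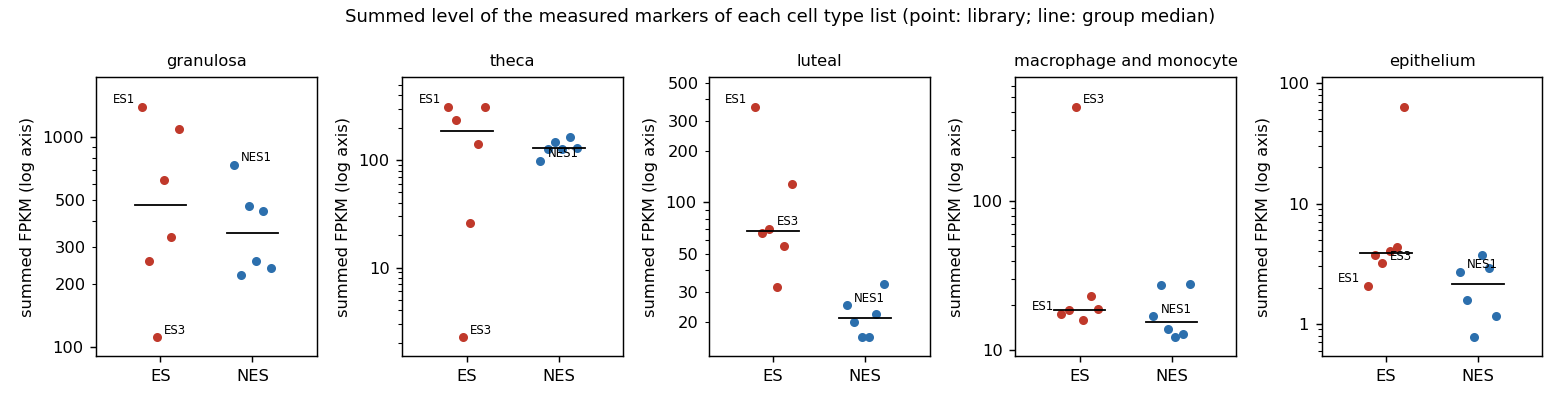
Summed FPKM of the marker lists in each library on log axes, ES left of NES. ES3 is highest for the macrophage and monocyte list (429.8) and lowest for the theca list (2.23), and ES1 is highest for the luteal list (360.7).

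Without ES1, ES3 and NES1 together, a comparison chosen after the values were seen, HKDC1, below the expression filter without ES1, had a log2 difference of 3.57, given with no test. HK2 had 0.17, SLC2A3 had 0.21 and HK1 had 0.12 on the same scale. EGLN1 was at -0.41, close to its value with all libraries. LDHA, PFKFB3 and EGLN3 were at -0.17, -0.37 and -0.11. Without ES1, ES3 and ES6, the 3 ES libraries in which a marker list was highest, the median log2 difference was -0.22 for the 12 glycolytic enzymes and 0.16 for the 8 HIF targets.

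Ratios between related genes within a library take out most of its scaling. The level of a ratio still depends on the lengths used for both genes. Of 12 ratios listed, 7 had both genes measured and 5 were not computed. Each was the ratio of FPKM + 0.5, and the difference in mean log2 ratio went into an exact permutation test, two-sided, over all 924 divisions of the libraries into 6 and 6, for which the smallest possible p is 0.00216. None of the 7 passed after Benjamini-Hochberg adjustment over the 7 ratios. SLC16A3/SLC16A1 had the smallest p. It ranged over 0.520, 0.817 and 1.02 in ES, against 0.426, 0.503 and 0.735 in NES, with 3 ES libraries above all NES libraries. The log2 difference of this ratio was 0.51, with an exact p of 0.0519 and an adjusted p of 0.364.

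LDHA/LDHB ranged over 0.0990, 0.175 and 0.572 in ES, against 0.122, 0.154 and 0.190 in NES. Its highest value was in ES3, and ES1 was the other library above the NES range. The log2 difference was 0.35, with an exact permutation p of 0.424 (adjusted p 0.811). HK2/HK1 ranged over 0.192, 0.325 and 1.35 in ES, against 0.236, 0.286 and 0.364 in NES, with a log2 difference of 0.39 and an exact permutation p of 0.463 (adjusted p 0.811). EGLN3/EGLN1 ranged over 0.852, 1.64 and 7.78 in ES, against 0.846, 1.09 and 2.30 in NES, with a log2 difference of 0.68 and an exact permutation p of 0.195 (adjusted p 0.682). ES3 was the highest library for all 3 of these ratios. PFKP/PFKM, PFKL/PFKM and PFKFB4/PFKFB3 had log2 differences of 0.071, 0.14 and 0.17, each with an adjusted p of 0.816 by the exact permutation test.

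**Figure D5:**
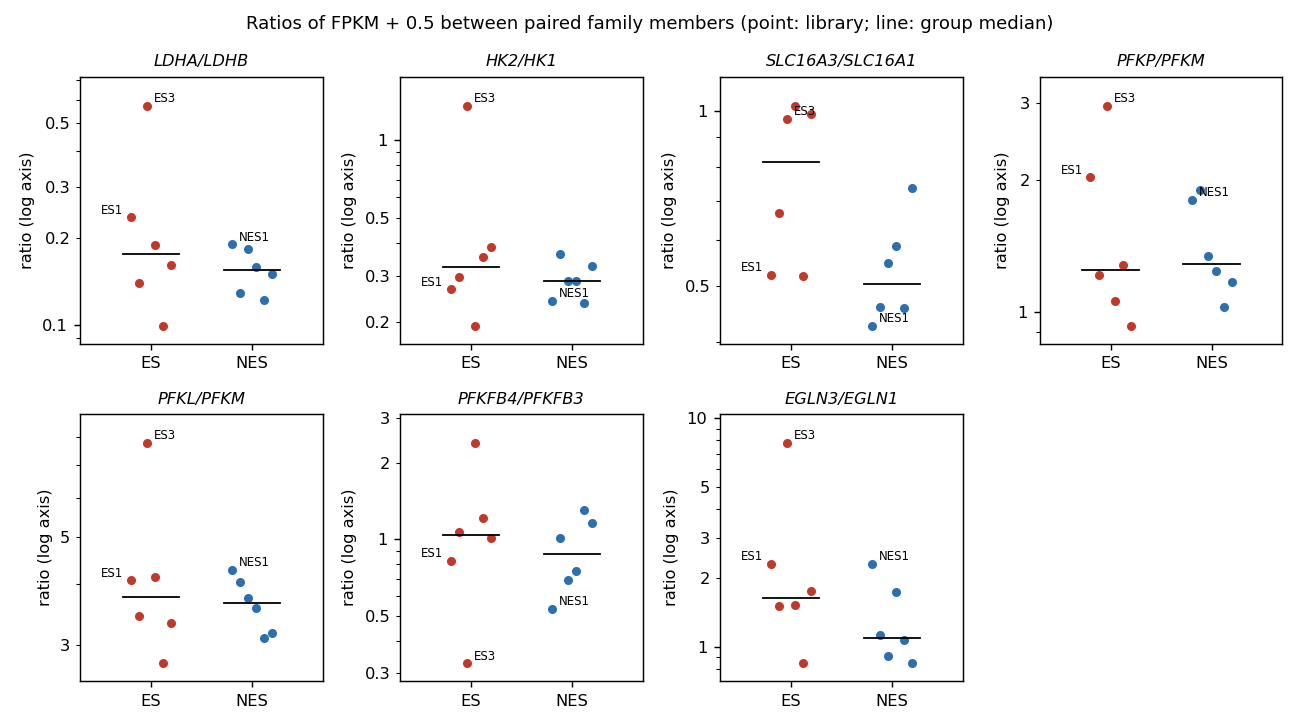
Ratios of FPKM + 0.5 between related genes in each library on log axes, ES left of NES, with a line at each group's median. ES3 is the highest ES point for LDHA/LDHB (0.572), HK2/HK1 (1.35), PFKP/PFKM (2.96), PFKL/PFKM (7.77) and EGLN3/EGLN1 (7.78), and for SLC16A3/SLC16A1 3 ES libraries lie above the NES range.

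The 9 joined loci cannot be given to one gene. Of these, 5 had a positive and 4 a negative log2 difference, with 56.2% of all loci positive. Of the 9, 1 was called, against 0.945% of all loci in either direction and 0.793% lower in ES, and it was the locus that holds ALDOC, the brain-type aldolase, and SPAG5, a mitotic spindle protein (chromosome 12, 44823014 to 44848527, minus strand). The locus of ALDOC and SPAG5 had 0.875, 0.639, 0.450, 0.504, 0.455 and 0.668 FPKM in ES1 to ES6, against 3.35, 1.65, 2.22, 1.95, 1.62 and 0.714 FPKM in NES1 to NES6. All ES libraries except ES1 were below every NES library, and NES6 lay among the ES values. It fell by 1.57 on the log2 scale (SE 0.31), with an adjusted p of 0.0406 in edgeR's test. The adjusted p lay between 0.0610 and 0.107 when any one library other than ES1 or NES6 was left out, so the call was lost. The call was also lost with no filter (adjusted p 0.0542), with ES1, ES3 and NES1 left out together (adjusted p 0.0735) and with ES1, ES3 and ES6 left out together (adjusted p 0.0935). Of its 23 alternatives, 9 kept the call and 14 lost it. DESeq2, which called 5.17% of all loci, gave the locus an adjusted p of 0.00013. Limma on log2(FPKM + 0.5), which called 1.62%, gave it an adjusted p of 0.0346. With any 1 library left out, the log2 difference in edgeR lay between -1.76 and -1.35. Which of the 2 genes the reads came from was not tested.

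The locus of HIF1A, the other main HIF alpha subunit, with SNAPC1 (chromosome 1, 190625293 to 190714756) ranged over 5.05, 5.81 and 15.9 FPKM in ES, against 7.17, 8.67 and 15.7 FPKM in NES. ES1 and NES1 were the highest libraries, and 4 ES libraries were below every NES library. The log2 difference of the HIF1A locus was -0.20 ± 0.32 (SE), with an adjusted p of 0.801 in edgeR's test. The locus of PKM, the pyruvate kinase gene, with PARP6 ranged over 8.74, 11.7 and 29.7 FPKM in ES, against 9.80, 11.5 and 17.2 FPKM in NES, with a log2 difference of 0.38 and an adjusted p of 0.539 in edgeR's test. The locus of ARNT, the common HIF partner, with CTSS, a lysosomal protease abundant in macrophages, ranged over 6.77, 7.85 and 19.9 FPKM in ES, against 7.08, 7.87 and 9.15 FPKM in NES, with a log2 difference of 0.38 and an adjusted p of 0.455 in edgeR's test. ES3 was the highest library for the PKM and ARNT loci, as it was for the macrophage markers and for 18.6% of all tested loci. The part of macrophages in the values of these loci was not tested. The locus of GPI, which converts glucose 6-phosphate to fructose 6-phosphate, with KIAA0355 ranged over 8.91, 10.5 and 18.7 FPKM in ES, against 8.78, 9.50 and 10.7 FPKM in NES, with a log2 difference of 0.40, an unadjusted p of 0.0351 and an adjusted p of 0.267 in edgeR's test. ES4 was the highest library there.

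The remaining joined loci differed little. The locus of SLC2A1, the common glucose transporter, with P3H1 had a mean of 4.74 ± 0.462 FPKM in ES, against 5.31 ± 0.349 FPKM in NES (SD, n = 6 for both), with a log2 difference of -0.067. The locus of ALDOA, the muscle-type aldolase, with TAOK2, INO80E and PPP4C had a mean of 5.65 ± 0.571 FPKM in ES, against 5.54 ± 0.407 FPKM in NES (SD, n = 6 for both), with a log2 difference of 0.13. TPI1, the triose phosphate isomerase, and ENO2, the neuronal enolase, shared a locus with 6 further gene names. The locus of TPI1 and ENO2 had a mean of 5.48 ± 0.617 FPKM in ES, against 5.75 ± 0.622 FPKM in NES (SD, n = 6 for both), with a log2 difference of 0.027. The locus of P4HA1, a collagen prolyl hydroxylase subunit, with NUDT13 had a mean of 2.69 ± 0.692 FPKM in ES, against 3.17 ± 0.449 FPKM in NES (SD, n = 6 for both), with a log2 difference of -0.16. Their adjusted p-values in edgeR's test were 0.795, 0.562, 0.930 and 0.657 in this order. The unannotated rows on the strand opposite to GPI, P4HA1 and ARNT, which carry these symbols, had log2 differences of 0.32, -0.29 and 0.029, with adjusted p-values of 0.375, 0.514 and 0.929 in edgeR's test.

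A further list of 52 genes of glucose metabolism and the hypoxia response had 29 genes tested on a locus of their own. Of these, 23 had a positive and 6 a negative log2 difference, with 56.2% of all loci positive. Their median was 0.22, against 0.043 for all loci. None was called by edgeR, where 0.945% of all loci were called, while 9 had an unadjusted p under 0.05 against 16.3% of all loci.

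PFKFB2, a further gene of the PFKFB family, ranged over 1.71, 2.21 and 3.96 FPKM in ES, against 1.46, 1.65 and 1.83 FPKM in NES. All ES libraries except ES2 were above every NES library. PFKFB2 had a log2 difference of 0.65 ± 0.19 (SE), with an adjusted p of 0.126 in edgeR's test and of 0.0331 in DESeq2. DDIT4, an inhibitor of mTORC1 signalling induced by hypoxia and stress, ranged over 7.28, 15.0 and 52.4 FPKM in ES, against 5.93, 7.74 and 12.4 FPKM in NES. ES1, ES2 and ES6 were above all NES libraries, while ES3 had the lowest DDIT4 of the ES libraries. DDIT4 had a log2 difference of 1.46 ± 0.45 (SE), with an adjusted p of 0.145 in edgeR's test and of 0.0231 in DESeq2, and it was 0.85 without ES1.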

How the data were processed

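Ovarian total RNA of 6 ES and 6 NES gilts was compared, grouped by sample title. Per the labels' protocols, libraries were rRNA-depleted and strand-specific (dUTP), and the tools HISAT2, TopHat, cutadapt and FastQC and the build Sscrofa11.1 are named in the submitters' processing notes. How reads were counted, and with which strand setting, is not given there. Per the file headers, the authors deposited raw counts and FPKM for each locus and library, the FPKM scaled by them for length and depth. Total counts were 58140547 to 68961955 per library, and no pair of libraries held identical values.

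The counts were tested with edgeR 4.0.16 (quasi-likelihood test, TMM factors) without covariates. Neither this test nor the permutation test of the ratios took account of which gilts were sisters. The 20421 loci whose mean FPKM reached 0.5 were tested, with Benjamini-Hochberg adjustment over all of them and calls under 0.05. The SE was derived from the F statistic (the log2 difference over its square root). FPKM gave the levels, and ratios used FPKM + 0.5, both without the TMM factors, which were 0.891 (ES1) to 1.08 (NES2). Alternatives were DESeq2 1.42.0, limma 3.58.1 on log2 FPKM with a pseudocount, other filters and scalings, a replicate block, libraries left out and other choices of row. The scripts were tested on simulated data. The members, the lists and the ratios were chosen with earlier results of these data known. All 38 members are named, as are the further pathway genes with the 3 smallest p-values, except 1 that is not reported here. LDHA was matched by a gene name table, and SLC2A3 and VHL by a reciprocal overlap of at least 0.5 with a RefSeq gene of the same build. Joined loci were not assigned to a gene. No genome sequence was used here. Software was Python 3.11.15 with numpy 2.4.6, matplotlib 3.10.9 and pandas 2.3.3, and R 4.3.3.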

Additional observations from a re-analysis of the deposited data

Results flagged for a closer look

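In 22 of 88 groups of 6 libraries examined for a value far from the others (Dixon's test, gap over range above 0.625), the highest library stood apart. The test used FPKM and ratios without a log, and its nominal rate of 1 in 20 holds for normally distributed values. No share over all loci is given here, so the 22 flags cannot be set against chance. All 22 were on the high side. The genes share libraries, so the flags are not independent.

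Library ES3 carried 10 of them. These were HK2 (11.2 FPKM, against 0.412 to 1.77 in the other ES libraries), PGK1 (51.1 FPKM, others up to 27.3), LDHA (21.9 FPKM, others up to 10.4), PFKFB3 (7.10 FPKM, others up to 2.22) and EGLN3 (21.2 FPKM, others up to 5.69). The joined locus of ARNT and CTSS had 19.9 FPKM in ES3, with the others up to 8.63. The ratios were LDHA/LDHB at 0.572, HK2/HK1 at 1.35, PFKL/PFKM at 7.77 and EGLN3/EGLN1 at 7.78. ES3 is also the library whose macrophage and monocyte markers summed to 429.8 FPKM and whose theca markers summed to 2.23 FPKM, and their part in these values was not tested.

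Library ES1 carried 3, HKDC1 (14.7 FPKM, others up to 0.770), SLC2A3 (41.9 FPKM, others up to 13.3) and the joined locus of HIF1A (15.9 FPKM, others up to 8.59). Library NES1 carried 6, HK1 (4.93 FPKM), PGK1 (35.7 FPKM), PGAM1 (22.7 FPKM), LDHA (11.7 FPKM), VHL (5.85 FPKM) and the joined locus of HIF1A (15.7 FPKM). NES1 had the highest granulosa marker sum of the NES libraries, 737.5 FPKM, and its part was not tested. The other 3 were CA9 in ES4 (2.54 FPKM), EGLN1 in ES5 (4.84 FPKM) and PDK1 in NES5 (3.22 FPKM).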

How the results depend on the processing

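Of 715 values of single measured genes under the alternatives, 646 kept their direction and side of the threshold. The number of called loci moved most, with 193 in edgeR against 28 with no filter, 1055 with DESeq2, 330, 322 and 337 with limma at pseudocounts of 0.5, 0.1 and 1, 0 to 415 with 1 library left out, 3 without ES1, ES3 and ES6, and 2 without ES1, ES3 and NES1. The labels do not say whether title numbers mark sisters, so the pairing is unknown. Correlations of same-numbered libraries were -0.028 to 0.24, over 0.1 in 2 of 6 pairs, and 3 ES libraries correlated best with their own number. With the numbers as a replicate block in edgeR's test, 0 loci were called. The joined locus of ALDOC and SPAG5 then had an adjusted p of 0.0880 and PFKFB3 was at -0.080. DESeq2 called 1 of the 28 genes and gave HKDC1 and SLC2A3 no adjusted p.

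Limma at 0.5, 0.1 and 1 gave PFKL -0.053, -0.056 and -0.050, GAPDH -0.029, -0.030 and -0.028, PFKFB3 -0.14, -0.17 and -0.11, and PDK1 -0.0047, -0.0090 and -0.0014. The median of HIF targets was 0.044 at a pseudocount of 1.

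Without ES1, ES3 and ES6 the medians were -0.38 for transporters, -0.22 for glycolytic enzymes, -0.12 for flux regulators and -0.19 for all 28 genes. Log2 differences were SLC2A3 -0.013, SLC16A3 -0.38, HK1 -0.0084, HK2 -0.21, PFKL -0.23, GAPDH -0.35, PGK1 -0.17, PGAM1 -0.10, LDHA -0.46, PFKFB3 -0.60, PDK1 -0.12 and EGLN3 -0.23. Ratios were LDHA/LDHB -0.15, HK2/HK1 -0.075, PFKP/PFKM -0.22 and PFKL/PFKM -0.094. Without ES1, ES3 and NES1, chosen after seeing the data, the median of flux regulators was -0.11, and PFKL was at -0.083, GAPDH -0.088, LDHA -0.17, PFKFB3 -0.37, PDK1 -0.11, EGLN3 -0.11, LDHA/LDHB -0.036, PFKP/PFKM -0.23 and PFKL/PFKM -0.054. The cause of these reversals was not tested.

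With 1 library left out, differences ranged over -0.188 to 0.117 for PFKP, -0.130 to 0.184 for ENO1, -0.097 to 0.135 for PFKL, -0.025 to 0.206 for GAPDH, -0.044 to 0.599 for LDHA, -0.480 to 0.233 for PFKFB3, -0.029 to 0.194 for PDK1, -0.10 to 0.685 for EGLN3, -0.048 to 0.233 for CA9, -0.136 to 0.199 for PFKP/PFKM, -0.048 to 0.252 for PFKL/PFKM and -0.093 to 0.481 for PFKFB4/PFKFB3. Ranges of the same sign were 0.363 to 0.715 for HK1, -0.626 to -0.251 for SLC16A1, 0.057 to 0.362 for SLC16A3, -0.225 to -0.059 for PFKM, 0.078 to 0.244 for PGAM1, -0.222 to -0.078 for LDHB, 0.079 to 0.240 for BNIP3 and 0.061 to 0.217 for VHL. ANKRD37 was at -0.32 on its row with the highest FPKM. HKDC1 in NES rests on 7 to 58 reads a library, which limits the precision of its fold.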
